A study of Homo sapiens with 6 samples.

Results

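The K562 chromosome 21 genes described here were a set of 60 genes that lie along the long arm of human chromosome 21. They were chosen by the contrast reported below, since the set was selected on a shared small decrease in methotrexate (MTX)-resistant K562 cells. The differences between the groups are therefore a description, with no test for the listed genes. Of the 60 genes, 52 had at least 1 probe set that named only that gene and passed the level filter. JAM2, ADAMTS1, TIAM1, CBR3 and BACE2 had no probe set above the filter, TTC3 was named only by probe sets shared with the pseudogene TTC3P1, and PDXK and AGPAT3 were named by no probe set of the annotation used here. N6AMT1 is listed under its current symbol HEMK2 in the reference annotation.

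K562 is an established human leukaemia cell line with erythroid features, derived from chronic myeloid leukaemia at its blast stage. The 3 arrays of K562 cells resistant to MTX (labelled as resistant to 10e-5 M), an inhibitor of dihydrofolate reductase, were compared with the 3 arrays of the parental K562 cells, which are sensitive to MTX. Resistant cells were kept in a selective medium that lacks glycine, hypoxanthine and thymidine and holds dialysed serum, and parental cells in Ham's F12, so that the effects of MTX resistance and of the medium cannot be told apart. Whether replicates were separate cultures is not given by the labels, and p-values measure the spread between these samples, which may be technical.

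Chromosome 21 is the smallest human autosome, and its trisomy causes Down syndrome, which carries a raised risk of leukaemias of the megakaryocytic and erythroid lineage. Its genes do not form a pathway. They encode, among others, the receptor chains for interferons, the superoxide dismutase SOD1, the kinase DYRK1A, the calcineurin inhibitor RCAN1, and single subunits of complexes whose other subunits lie on other chromosomes.

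All levels below are signals divided by the median signal of the array, called array medians, and differences are resistant minus parental on the log2 scale with the standard error (SE) of a model fitted across all probe sets. For each gene the tested probe set of highest level was used. The median signals were 12.3, 12.5 and 10.2 in resistant arrays 1 to 3 and 14.3, 13.1 and 12.7 in parental arrays 1 to 3. Parental 1 stood apart, with Spearman correlations of 0.899 and 0.889 with parental 2 and 3, which correlated at 0.969. Of 14 erythroid markers, 10 could be read, and all 10 averaged at least 1 array median, with a summed level of 1279 to 1524 in resistant and 1823 to 1976 in parental arrays. The embryonic globin HBE1 made up most of that gap, at 37.6 to 73.8 in resistant and 561.7 to 670.3 in parental arrays, while HBZ was at 620.3 to 714 and 551 to 653. Among markers of other cell types, the 5 T cell genes summed to 1.72 to 4.05 in resistant and 34.9 to 51.4 in parental arrays, which in the parental arrays was nearly all CD3D. The 3 monocyte genes summed to 10.5 to 22.8 and 42.6 to 62.2, nearly all of it LYZ, while CD14 stayed between 0.0813 and 0.167 array medians in all 6 arrays. The 5 epithelial genes summed to 221 to 305 in resistant and 266 to 634 in parental arrays, with the highest sum in parental 1. Each of the 5 was highest in parental 1. In parental arrays 1 to 3 CDH1 stood at 21.8, 2.01 and 0.717, and EPCAM at 9.53, 1.19 and 0.307. The 2 B cell genes read summed to 0.224 to 2.70 and 0.986 to 1.86, and the 5 fibroblast genes to 5.90 to 8.69 and 7.25 to 7.93. The part of these markers in the differences below was not tested. In bulk samples, fewer cells of a type and less RNA per cell cannot be told apart.

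The listed genes, chosen for a shared small fall in these same arrays, were mostly lower in resistant cells along the chromosome. Their differences ran from -4.10 to 0.54. The median log2 difference of the 52 genes was -0.70, with quartiles of -1.06 and -0.47, so that the resistant level was 61.5% of the parental level at the median, against a median of 0.02 over all 11810 genes tested. Of the 52 genes 51 lay below 0, which is 98.1%, against 48.6% of all genes. In 41 genes, or 78.8%, every resistant array was below every parental array, a pattern found in 14.2% of all genes. By limma across all genes, 6 of the 52 passed an adjusted p under 0.05 with at least a 2-fold change, all of them lower (NRIP1, BTG3, DYRK1A, DSCR4, DSCR8 and BRWD1), against 1.47% of all genes called lower, and 0 were called higher (0 also at an unadjusted p under 0.05), against 1.3% of all genes. The count of 6 was unchanged without parental 1, and it was 0 without parental 2 and 1 without parental 3. It was 2 without resistant 1, 1 without resistant 2 and 1 without resistant 3. The 1 gene called without parental 3, resistant 2 or resistant 3 was DSCR4, which was also 1 of the 2 without resistant 1. DSCR4 passed the level filter only through its parental arrays, so nothing is read from its call. Because this contrast chose the genes, nothing is read from these shares. A total of 36 genes had differences between -1.1 and -0.3, 11 lay under -1.1 and 5 at or above -0.3, and the median SE of a single gene was 0.245.

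**Figure D1:**
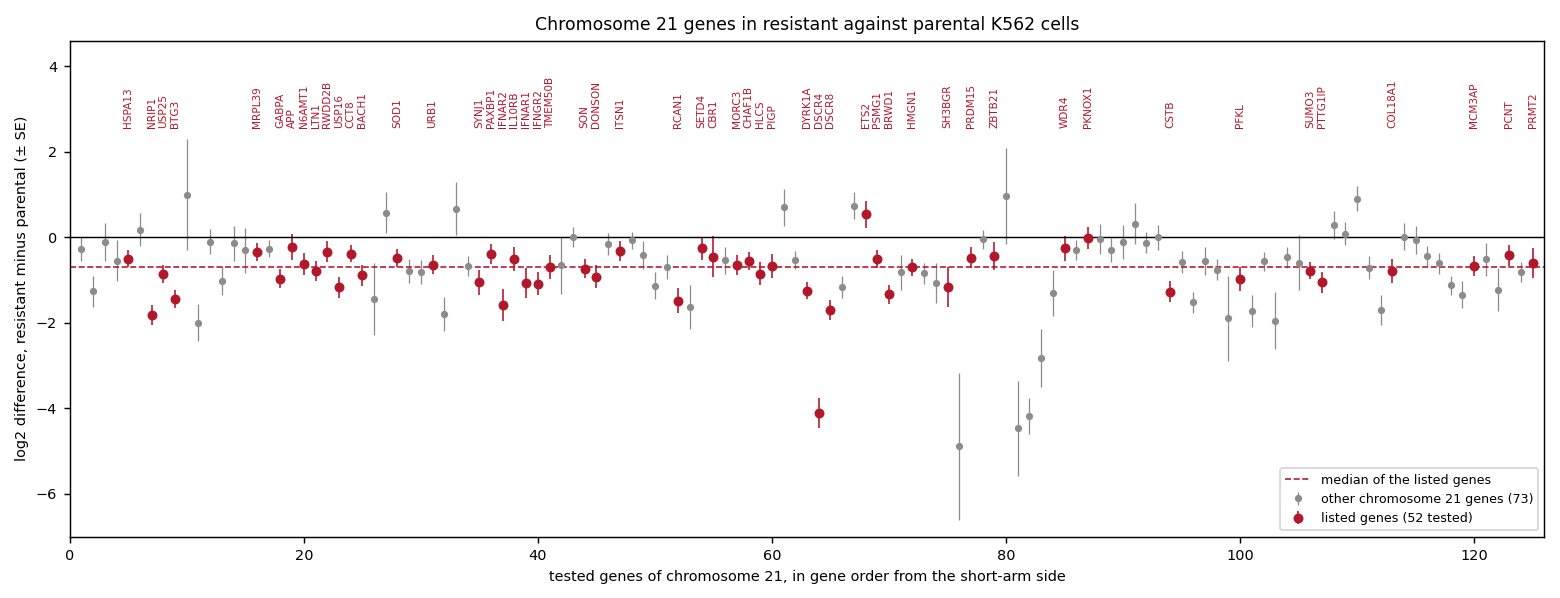
Log2 difference between resistant and parental arrays (vertical axis, ± SE) for the 125 tested genes of chromosome 21 in gene order (horizontal axis). The 52 listed genes are red and the other 73 genes grey; 51 of the 52 red points lie below 0, and the dashed line is their median of -0.70.

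The decrease was present in each resistant array. Relative to the parental mean, the median of the listed genes was -0.63, -0.83 and -0.72 in resistant arrays 1 to 3, while the median of all genes was 0.16, -0.07 and 0.01. In the same arrays 50, 51 and 46 of the 52 genes were below the parental mean. Each parental array was set against the mean of the other parental arrays, and there the median of the listed genes was 0.12, 0.06 and -0.18 in parental arrays 1 to 3, with 20, 23 and 40 of the 52 genes below. The median of all genes there was 0.10, 0.06 and -0.12, so that parental 3 was the lowest of the parental arrays for all genes as well as for these. Every resistant array lay further down for the listed genes.

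**Figure D2:**
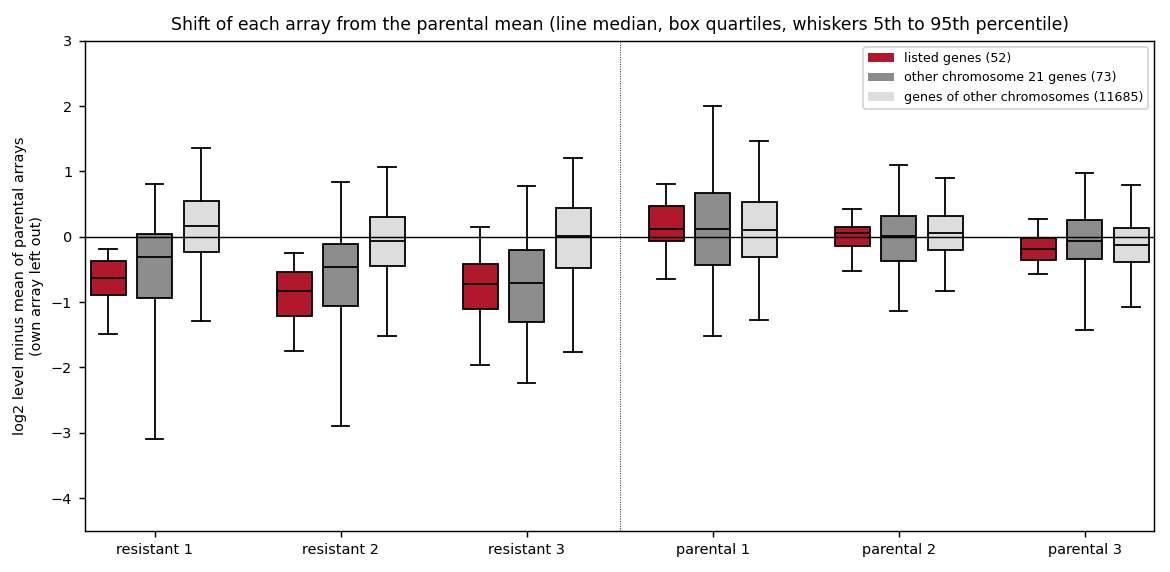
Shift of each array from the mean of the parental arrays, its own array left out (log2, vertical axis), for the 3 resistant and the 3 parental arrays (horizontal axis). Lines are medians, boxes quartiles and whiskers the 5th to 95th percentiles of the listed genes (red), the other chromosome 21 genes (dark grey) and genes not on chromosome 21 (light grey); the red medians lie at -0.63, -0.83 and -0.72 in resistant arrays and between -0.18 and 0.12 in parental arrays.

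Medians were similar along the chromosome. With the 52 genes cut into 4 runs of 13 in gene order, the median was -0.78 from HSPA13 to BACH1, -0.73 from SOD1 to RCAN1, -0.66 from SETD4 to HMGN1 and -0.67 from SH3BGR to PRMT2. The median was below 0 at all signal levels. It was -0.51 for the 15 genes at 1 to 10 array medians, -0.70 for the 15 at 10 to 30 and -0.78 for the 22 at 30 or more, where all genes in these ranges had medians of -0.07, 0.04 and 0.10.

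The other 73 tested genes of chromosome 21 had not been placed in the set, and their differences come from the same contrast. Their median was -0.55, with 60 of 73 below 0, which is 82.2%, against 48.6% of all genes. Every resistant array was below every parental array in 30 of 73, or 41.1%, against 14.2% of all genes. Part of these shares comes from faint genes that passed the level filter only through their parental arrays, such as LINC01667, RUNX1-IT1 and DSCR10. TCP10L, DSCR9 and ABCG1 passed it only through their resistant arrays. At 10 to 30 array medians 10 of 11 genes were below 0 (median -0.55), and at 30 or more 15 of 17 (median -0.30). Only 2 of the 73 were called by limma, both lower, which is 2.74%, against 1.47% of all genes called lower. TMPRSS3, a membrane serine protease, stood at 0.0732, 0.128 and 0.118 array medians in resistant arrays and at 1.18, 3.13 and 1.76 in parental arrays (limma adjusted p = 0.00647). These values are at or near background. TMPRSS3 passed the level filter only through its parental arrays, so nothing is read from its call. TRAPPC10, a subunit of a complex that tethers vesicles at the Golgi, stood at 1.78, 2.56 and 1.75 array medians in resistant arrays and 5.82, 5 and 6.46 in parental arrays (log2 difference -1.52, SE 0.248, adjusted p = 0.0353). This TMPRSS3 probe set had a log2 difference of -4.18 (SE 0.417). It stayed called without parental 1 or any 1 of the resistant arrays, at -4.51 to -3.93, a setting chosen after seeing the data, and it was not tested without parental 2 or 3, where it missed the level filter. Without any 1 of the resistant arrays another TMPRSS3 probe set had the highest level, and that one was not called. TRAPPC10 lost its call without any 1 array except parental 1, with log2 differences between -1.70 and -1.42, and also with a replicate block. ADARB1, an adenosine deaminase that edits RNA, was the only tested gene of the chromosome with every resistant array above every parental array, at 4.46, 3.22 and 2.51 against 2.01, 1.90 and 1.43 array medians (log2 difference 0.91, SE 0.290, adjusted p = 0.17).

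The lowest difference among these other genes was that of DSCAM-AS1, an antisense transcript named here after its values were seen, with 0.0325, 0.096 and 0.990 array medians in resistant arrays and 37.2, 2.81 and 0.772 in parental arrays (log2 difference -4.89, SE 1.72, limma adjusted p = 0.199). Its groups overlapped, as did those of TSPEAR-AS2 and ICOSLG, at -1.95 and -1.90. The genes below were taken from those whose groups did not overlap. TFF1, a secreted trefoil peptide of mucosa, had 0.951, 0.192 and 0.490 array medians in resistant arrays and 44.4, 9.76 and 2.26 in parental arrays (limma adjusted p = 0.104). TFF1 and DSCAM-AS1 were highest in parental 1, as were the epithelial markers CDH1 and EPCAM. Whether these go together was not tested. UBASH3A, a regulator of T cell receptor signalling, averaged 0.716 ± 0.365 in resistant and 5.75 ± 3.87 in parental arrays (SD, n = 3 each, limma adjusted p = 0.0968), and C21orf91 4.64 ± 0.309 and 21 ± 13.6 (SD, n = 3 each, limma adjusted p = 0.0771). The antisense transcript URB1-AS1 averaged 1.90 ± 0.599 and 6.74 ± 2.56 (SD, n = 3 each, limma adjusted p = 0.0842). All 4 missed the threshold, which C21orf91 and UBASH3A passed without parental 1. TFF1, UBASH3A, DSCAM-AS1, TSPEAR-AS2 and ICOSLG averaged under 1 array median in resistant arrays and passed the level filter only through their parental arrays.

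Over all autosomes, the genes of chromosome 21 had the lowest median. The 125 tested genes of chromosome 21 had a median of -0.64, and the next lowest were chromosome 7 at -0.23 over 568 genes and chromosome 19 at -0.11 over 866 genes, while chromosome 8 was highest at 0.26. On chromosome 21, 88.8% of the genes lay below 0. In each resistant array taken alone chromosome 21 ranked 1 of 22 from the lowest, and in parental arrays 1 to 3, each against the rest of its group, it ranked 14, 11 and 9. The listed genes are among those 125, so the rank is a description of the set and of its neighbours.

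**Figure D3:**
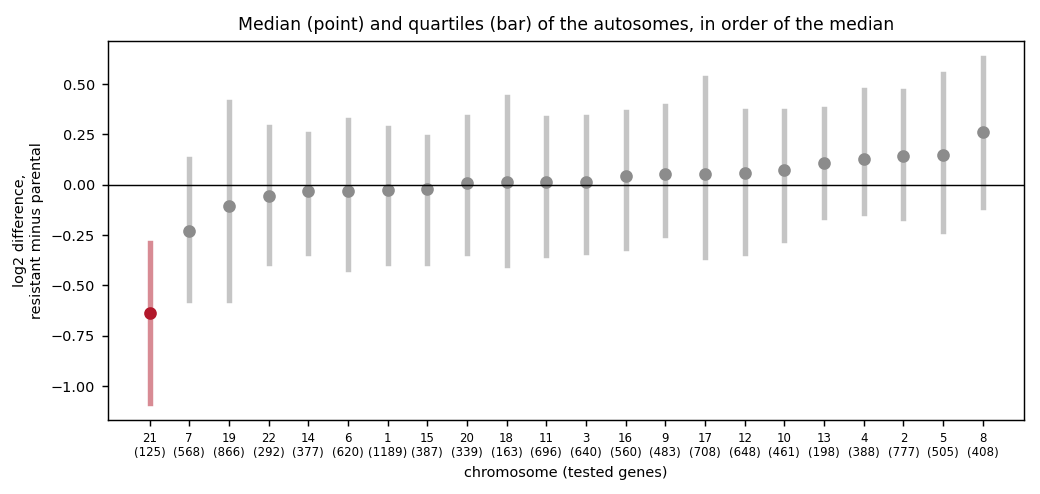
Median (point) and quartiles (bar) of the log2 difference between resistant and parental arrays (vertical axis) for the tested genes of each autosome, ordered by the median (horizontal axis, number of genes in brackets). Chromosome 21 (red) has a median of -0.64, and the other autosomes lie between -0.23 and 0.26.

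Different probe sets of the same gene mostly shared the direction. A total of 156 probe sets named 1 listed gene, and 116 passed the filter. Of these 112 were below 0, or 96.6%, against 48% of all 26692 tested probe sets, with a median of -0.69. The 40 probe sets under the filter had 21 below 0 and a median of -0.05. Of the 35 genes with several tested probe sets, 31 had them all below 0, and the exceptions were RWDD2B, BACH1, ETS2 and BRWD1. SON had 5 tested probe sets between -0.80 and -0.47, and USP16 had 3 between -1.17 and -1.09, whereas the 8 of BRWD1 spread between -1.74 and 0.84.

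**Figure D4:**
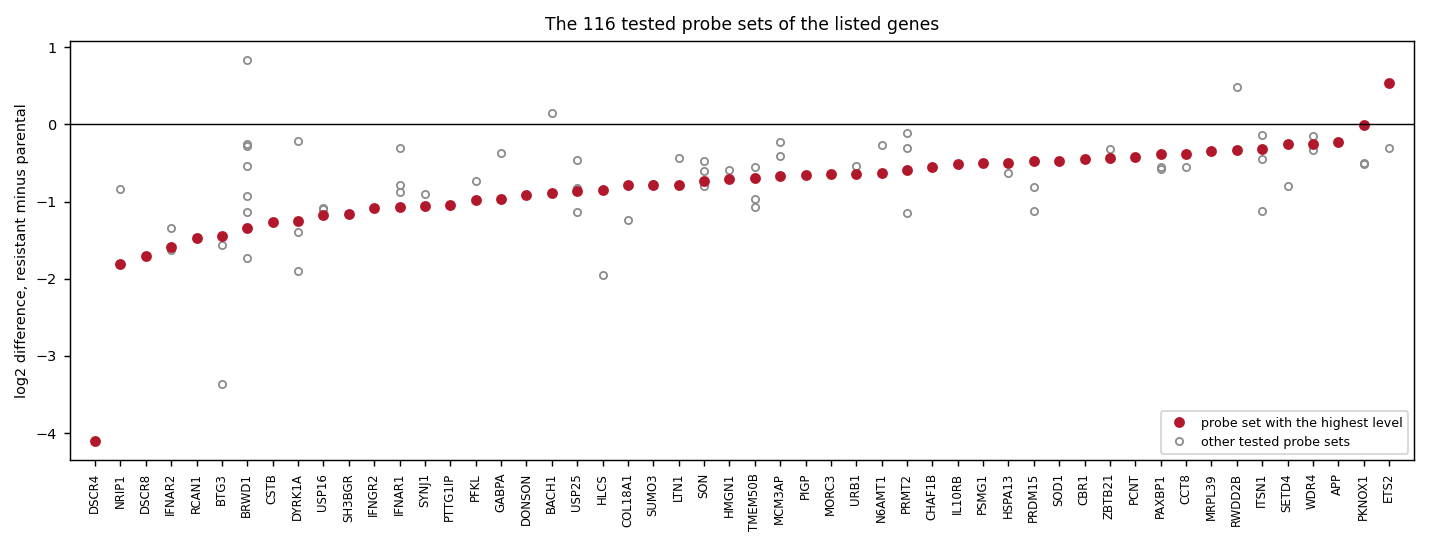
Log2 difference between resistant and parental arrays (vertical axis) of each tested probe set of the 52 listed genes, in order of the representative probe set (horizontal axis). Red points are the probe sets with the highest level and open points the others; 112 of the 116 probe sets lie below 0.

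The promoters of the listed genes were looked up in RefSeq (assembly GRCh38.p14), where 42 of the 52 tested genes had 68 windows of 250 bases before to 50 after a transcription start. In all, 6 short motifs were searched on both strands, each by its exact letters. The ETS motif CCGGAAG, the core read by ETS factors such as GABPA, was in 20.6% of these windows, in 17.3% of the windows of all tested genes and in 10.3% of all windows. The YY1 motif ATGGCGG was in 13.2%, 9.53% and 5.55%, the NRF1 motif GCATGCGC in 5.88%, 4.8% and 3.05%, and the CCAAT motif CCAATCA in 7.35%, 8.36% and 6.95%. The CRE motif TGACGTCA was in 2.94%, 2.86% and 1.85%, and the TATA motif TATAAA in 13.2%, 6.49% and 11.5%. The median GC content was 68.0%, against 64.7% for tested genes and 58.7% for all windows. The 81 windows of the other tested chromosome 21 genes had a median GC content of 68.3%. Among those 81, ETS was in 18.5%, YY1 in 8.64%, NRF1 in 9.88%, CCAAT in 8.64%, CRE in 1.23% and TATA in 11.1%. A match is a description of letters, not of binding, and these shares say nothing on their own about the differences.

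The windows of 3 genes are shown because of their values below: GABPA, which encodes an ETS factor and shares its start region with ATP5PF; SON, which shares its start region with GART; and USP16, whose 3 probe sets lie close together. The printed motifs do not overlap each other. All windows are on the plus strand of chromosome 21, with every match of the 6 motifs in capitals. The GABPA window is chr21:25734722-25735021, with the ETS motif read on the reverse strand as CTTCCGG, 66 bases before the start, and the YY1 motif in reverse as CCGCCAT, 33 bases before it. The SON window is chr21:33542788-33543087, with YY1 at 187 bases before the start and the CCAAT motif at 99 and 51 bases before it, the first in reverse as TGATTGG. The USP16 window is chr21:29024418-29024717, with the TATA motif in reverse as TTTATA at 203 bases before the start and the ETS motif CCGGAAG at 26 bases before it.
GABPA: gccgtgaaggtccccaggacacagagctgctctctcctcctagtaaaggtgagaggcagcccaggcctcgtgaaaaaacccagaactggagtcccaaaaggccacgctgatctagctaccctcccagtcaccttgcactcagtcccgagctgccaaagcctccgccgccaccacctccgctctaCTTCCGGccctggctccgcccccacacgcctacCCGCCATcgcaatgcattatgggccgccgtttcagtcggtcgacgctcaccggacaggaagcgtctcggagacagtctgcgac
SON: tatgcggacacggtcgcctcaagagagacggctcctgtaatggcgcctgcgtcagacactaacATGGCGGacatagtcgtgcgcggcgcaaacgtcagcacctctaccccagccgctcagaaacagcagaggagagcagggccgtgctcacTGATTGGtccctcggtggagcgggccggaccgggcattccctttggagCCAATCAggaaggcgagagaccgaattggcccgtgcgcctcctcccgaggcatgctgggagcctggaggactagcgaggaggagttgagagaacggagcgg
USP16: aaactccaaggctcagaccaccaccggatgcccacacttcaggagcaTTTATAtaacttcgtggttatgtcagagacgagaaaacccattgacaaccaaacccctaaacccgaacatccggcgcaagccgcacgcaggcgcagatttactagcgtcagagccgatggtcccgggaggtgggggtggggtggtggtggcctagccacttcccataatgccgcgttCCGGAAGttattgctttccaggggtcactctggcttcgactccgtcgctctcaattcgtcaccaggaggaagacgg

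The transcription factors and cofactors included NRIP1, with the second lowest difference of the 52 genes, and ETS2, with the only positive one. Of the 8 tested, 7 were below 0, 5 had groups that did not overlap, and the median was -0.68. Over all genes, 14.2% had every resistant array below every parental array. As this contrast chose the listed genes, nothing is read from such counts here or in the role groups below. NRIP1, a corepressor of nuclear receptors, stood at 17.5, 13.6 and 11.6 array medians in resistant arrays and at 51.3, 52.4 and 44.9 in parental arrays, 3.51-fold lower in resistant cells (log2 difference -1.81, SE 0.237). BTG3, an antiproliferative member of the BTG/TOB family, stood at 14.4, 13.8 and 12.4 in resistant arrays and 38.8, 39.1 and 32.6 in parental arrays (log2 difference -1.44, SE 0.204). By these probe sets the resistant arrays of both genes lay clear of the parental arrays. The second tested NRIP1 probe set overlapped between the groups, at 9.07, 10.4 and 18.1 in resistant arrays and 9.17, 35.5 and 30.2 in parental arrays (log2 difference -0.84, SE 0.566). With the median of its probe sets, the log2 difference of NRIP1 was -1.33.

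GABPA, the DNA-binding subunit of an ETS factor that acts on many housekeeping promoters, stood at 6.13, 5.42 and 4.41 array medians in resistant arrays and 9.64, 10.6 and 10.6 in parental arrays (log2 difference -0.96, SE 0.218). BACH1, a haem-regulated repressor of haem oxygenase and globin genes, stood at 13, 10.5 and 16.2 in resistant arrays and 25.4, 25.5 and 21.8 in parental arrays (log2 difference -0.89, SE 0.241), while a second BACH1 probe set was at 0.14. Neither gene had overlapping groups by the probe set of highest level, whereas the second GABPA probe set had 6.99, 6.3 and 4.44 in resistant arrays and 6.46, 7.28 and 9.13 in parental arrays.

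ETS2, another ETS factor, was the only gene with a positive difference. It stood at 9.32, 6.85 and 6.69 array medians in resistant arrays and at 4.01, 4.4 and 7.93 in parental arrays (log2 difference 0.54, SE 0.326), so that the groups overlapped, and its other tested probe set, the only one left without probe sets of shared sequence, was at -0.31. PKNOX1, a TALE homeobox factor, was the gene closest to 0, at 4.42, 3.30 and 5.04 in resistant arrays and 4.30, 4.88 and 3.58 in parental arrays (log2 difference -0.01, SE 0.254). Its 3 probe sets lay between -0.51 and -0.01, and leaving out 1 array turned the sign, over a range of -0.14 to 0.16. With the median of its probe sets, the log2 difference of PKNOX1 was -0.50. The zinc finger genes PRDM15 and ZBTB21 had differences of -0.48 and -0.43, of which only PRDM15 had groups that did not overlap.

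**Figure D5:**
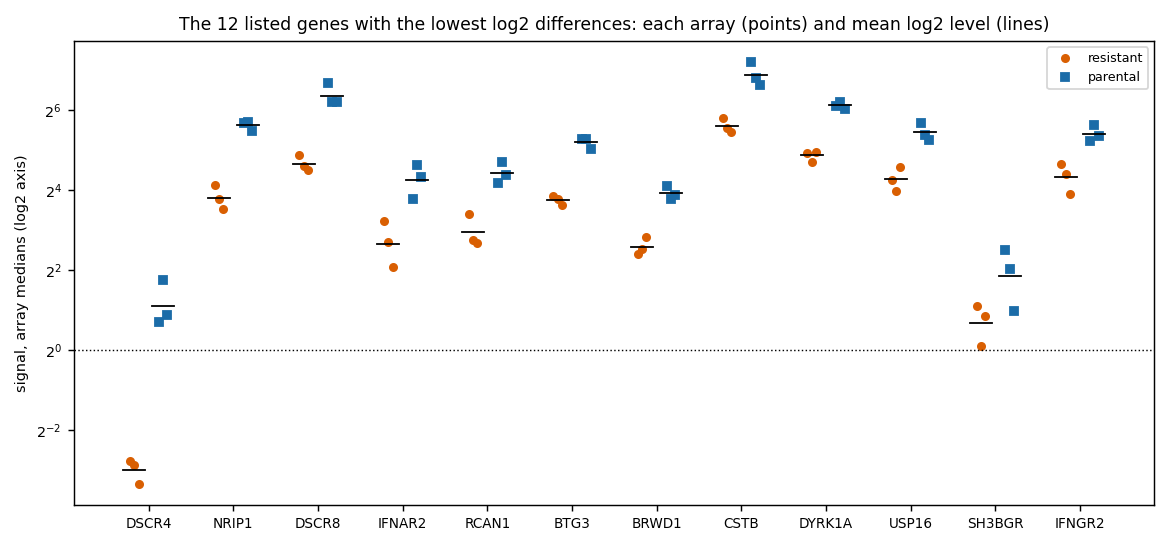
Level in array medians (log2 axis, vertical) of the 12 listed genes with the lowest log2 differences (horizontal axis), with resistant arrays as orange circles left of the parental arrays as blue squares. Short lines are means of log2 levels and the dotted line is the array median; the groups overlap only for SH3BGR, and the resistant arrays of DSCR4 lie under the array median.

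The 5 chromatin and replication genes had a median of -0.70, and all 5 had groups that did not overlap. BRWD1, a bromodomain and WD repeat protein, stood at 5.32, 5.73 and 7.07 array medians in resistant arrays and at 17.1, 13.7 and 14.8 in parental arrays (log2 difference -1.34, SE 0.222), by a probe set that is 1 of 8. With the median of the 8, the log2 difference of BRWD1 was -0.74. HMGN1, a nucleosome-binding protein that loosens chromatin, stood at 188, 180.0 and 211 in resistant arrays and 346, 304 and 293 in parental arrays (log2 difference -0.70, SE 0.202). CHAF1B, a subunit of the histone chaperone CAF-1, stood at 10.9, 14.2 and 10.4 in resistant arrays and 17.4, 17.3 and 16.9 in parental arrays (log2 difference -0.55, SE 0.216).

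MORC3, an ATPase of nuclear bodies, had a difference of -0.64 and DONSON, a protein of the replication fork, of -0.92. To set such subunits beside their partners, 57 genes of 10 named complexes or pathways on other chromosomes were read from the same limma fit. None was called (0 of 57, and 0 by the methods' t-test), and at an unadjusted p under 0.05 there were 7 lower and 4 higher, together 19.3%, against 20% of all genes. Of the 5 partners of CHAF1B (CHAF1A, RBBP4, ASF1A, ASF1B and PCNA), 0 were called in either direction and the median was 0.09. CHAF1A, the large subunit of CAF-1, stood at 34.5, 28.9 and 37.8 array medians in resistant arrays and at 24.6, 23.8 and 24.3 in parental arrays (log2 difference 0.47, SE 0.207, limma adjusted p = 0.293). Its resistant arrays were all above its parental arrays, the opposite order to CHAF1B.

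Among genes of protein folding, ubiquitin and ribosome quality control, all 9 were below 0, 8 had groups that did not overlap, and the median was -0.78. CSTB, an inhibitor of lysosomal cathepsins, stood at 55.9, 47.3 and 43.7 array medians in resistant arrays and 148, 111 and 98.4 in parental arrays (log2 difference -1.27, SE 0.245). USP16, which removes ubiquitin from histone H2A, stood at 19.2, 15.9 and 24 in resistant arrays and 51.5, 42 and 38.5 in parental arrays (log2 difference -1.17, SE 0.25). The groups lay apart in both genes.

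SUMO3, a ubiquitin-like modifier, stood at 82.3, 73.3 and 85.2 array medians in resistant arrays and 144, 144 and 126 in parental arrays (log2 difference -0.78, SE 0.200). LTN1, the ubiquitin ligase that marks stalled nascent chains, had a difference of -0.78 and the deubiquitinase USP25 of -0.86, with no overlap in either. HSPA13, a chaperone of the HSP70 family, had the tightest groups, at 15.7, 17.6 and 17.3 in resistant arrays and 23.4, 24.4 and 23.5 in parental arrays (log2 difference -0.50, SE 0.191). RWDD2B was the member of this group whose arrays overlapped, at 9.43, 9.17 and 13.5 in resistant arrays and 15.2, 13.1 and 11.8 in parental arrays, and its 2 probe sets lay at -0.33 and 0.48.

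CCT8 encodes 1 subunit of the TRiC chaperonin, which folds actin and tubulin and whose other subunits are encoded on other chromosomes. It stood at 298, 258 and 323 array medians in resistant arrays and at 385, 399 and 359 in parental arrays (log2 difference -0.38, SE 0.204), with groups that did not overlap. Of 6 other TRiC subunits tested, 0 were called, the median was 0.31, only CCT6A was below 0, at -0.17, and 4 had every resistant array above every parental array, a pattern found in 16.1% of all genes. The highest was CCT4, at 356, 311 and 397 in resistant arrays and 208, 242 and 236 in parental arrays (log2 difference 0.63, SE 0.209, limma adjusted p = 0.182).

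PSMG1, a chaperone of proteasome assembly, stood at 133, 102 and 131 array medians in resistant arrays and at 163, 179.6 and 171 in parental arrays (log2 difference -0.50, SE 0.213). Its 8 fellow assembly factors had a median of 0.21, with 0 called, 3 entirely above and 1 entirely below the parental arrays (16.1% and 14.2% of all genes). Its direct partner PSMG2 stood at 225, 210.2 and 188 in resistant arrays and 145, 152 and 139 in parental arrays (log2 difference 0.51, SE 0.197, limma adjusted p = 0.234). The 10 other ribosome quality control genes had a median of 0.11 with 0 called, between VCP at -0.44 and ZNF598 at 1.04. Of these 1 lay entirely below and 1 entirely above the parental arrays. The 4 tested SUMO pathway genes had a median of -0.16 with 0 called, between SAE1 at -0.65 and SENP3 at 0.70. Of these 1 lay entirely below and 0 entirely above.

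All 4 listed cytokine receptor chains were lower, with groups that did not overlap and a median of -1.08. IFNAR2, the high-affinity chain of the type I interferon receptor, stood at 9.30, 6.45 and 4.2 array medians in resistant arrays and 13.7, 24.9 and 20.2 in parental arrays (log2 difference -1.59, SE 0.375). IFNAR1, the other chain of that receptor, stood at 3.27, 2.80 and 4.47 in resistant arrays and 10.6, 7.49 and 4.80 in parental arrays (log2 difference -1.07, SE 0.354), where the highest resistant and the lowest parental array lay close. IFNGR2, the signalling chain of the interferon gamma receptor, stood at 25.1, 21.2 and 14.9 in resistant arrays and 37.4, 49.2 and 41.2 in parental arrays (log2 difference -1.08, SE 0.269).

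IL10RB, a chain shared by the receptors for interleukin-10, interleukin-22 and the lambda interferons, had the smallest difference of the 4 (-0.51, SE 0.278), with 8.58, 7.63 and 6.09 array medians in resistant arrays and 14.2, 9.17 and 8.80 in parental arrays. Of 7 tested partners that these receptors use, encoded on other chromosomes, 0 were called and the median was -0.42. In 3 of the 7 every resistant array was below every parental array, against 14.2% of all genes. All 7 differences were below 0, but TYK2 was at -0.003 (SE 0.294) and IFNGR1 at -0.24 (SE 0.326). IL10RA, the ligand-binding chain for interleukin-10, had 0.789, 0.616 and 0.147 array medians in resistant arrays and 8.25, 2.69 and 2.43 in parental arrays (limma adjusted p = 0.0951). It passed the level filter only through its parental arrays, and it was called with a pseudocount of 1 or an intensity trend. STAT3, a transcription factor downstream of interleukin-10, averaged 20.7 ± 4.96 array medians in resistant arrays and 45.5 ± 12.5 in parental arrays (SD, n = 3 each, log2 difference -1.13, limma adjusted p = 0.12).

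The signalling, vesicle and cytoskeleton genes had a median of -1.05 over 8, all below 0, and 6 without overlap. RCAN1, an inhibitor of the phosphatase calcineurin, stood at 10.6, 6.70 and 6.36 array medians in resistant arrays and 18.2, 25.8 and 20.7 in parental arrays (log2 difference -1.48, SE 0.284), and its second probe set was at -1.47. DYRK1A, a kinase whose targets include the NFAT factors that calcineurin activates, stood at 30.7, 26.2 and 31.2 in resistant arrays and 68.9, 74.3 and 65.9 in parental arrays (log2 difference -1.25, SE 0.201). Its 4 tested probe sets ranged between -1.91 and -0.21. All but the one above were faint, averaging 1.16, 1.48 and 1.21 array medians, with SEs of 0.61, 1.26 and 0.70. Another probe set, under the filter, was at 1.83, so the difference rests mainly on the probe set of highest level.

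PTTG1IP, a binding partner of securin, stood at 56.4, 46.7 and 49.3 array medians in resistant arrays and 132, 103 and 84.7 in parental arrays (log2 difference -1.05, SE 0.245). SYNJ1, a phosphoinositide phosphatase of endocytosis, was also at -1.05. SH3BGR had 2.15, 1.07 and 1.78 in resistant arrays and 5.68, 4.07 and 1.98 in parental arrays (log2 difference -1.16, SE 0.460), and there the groups overlapped. PCNT, a scaffold of the centrosome, was at -0.42 with groups that came close, and TMEM50B was at -0.70 with the highest resistant and the lowest parental array both at 26.6 after rounding. ITSN1, a scaffold of endocytosis, overlapped between the groups, at 6.41, 5.15 and 6.59 in resistant arrays and 9.28, 6.98 and 6.47 in parental arrays (log2 difference -0.32, SE 0.240).

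Genes of RNA handling, translation and methylation had the narrowest range, between -0.73 and -0.26 over 9 genes, with a median of -0.60 and 6 without overlap. SON, a protein of nuclear speckles needed for splicing, stood at 60.5, 59 and 76.2 array medians in resistant arrays and 105, 118 and 100.3 in parental arrays (log2 difference -0.73, SE 0.215). MCM3AP, the scaffold of the TREX-2 complex that exports mRNA, stood at 16.9, 13.4 and 15.6 in resistant arrays and 27.8, 25.3 and 20.3 in parental arrays (log2 difference -0.67, SE 0.227). The 5 other TREX-2 genes had a median of -0.06, with 0 called. Of these 3 were below 0, and 2 lay entirely below and 0 entirely above the parental arrays (14.2% and 16.1% of all genes). The ends of the list were CETN2 at -0.86 (SE 0.277) and ENY2 at 0.52 (SE 0.369).

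URB1, which acts in the making of the large ribosomal subunit, stood at 5.98, 5.30 and 6.25 array medians in resistant arrays and 7.65, 10.2 and 9.58 in parental arrays (log2 difference -0.64, SE 0.218). MRPL39, a protein of the mitochondrial ribosome, stood at 48.9, 45.9 and 50.3 in resistant arrays and 69.5, 59.5 and 55.7 in parental arrays (log2 difference -0.34, SE 0.203). N6AMT1, which methylates a translation release factor, was at -0.62 and PAXBP1 at -0.39, both without overlap. The arrays of the groups overlapped for SETD4 and WDR4, both at -0.26, and for the arginine methyltransferase PRMT2, at -0.60. WDR4, the partner of METTL1 in tRNA methylation, stood at 25.3, 22.7 and 34.2 in resistant arrays and 23.3, 39.6 and 36.3 in parental arrays, with parental 1 the array that lay among the resistant ones.

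Metabolic and oxidant defence genes had a median of -0.66 over 5, with 4 without overlap. SOD1, the cytosolic copper and zinc superoxide dismutase, stood at 287, 257 and 215 array medians in resistant arrays and 344, 372 and 334 in parental arrays (log2 difference -0.48, SE 0.212). Of the 5 tested partners of superoxide defence, 2 were below 0, the median was 0.17 and 0 were called. The 2 were SOD3, the lowest at -1.13 (SE 0.833), and CCS at -0.68 (SE 0.353). CAT, the catalase that removes the peroxide SOD1 makes, stood at 224, 192 and 230.2 in resistant arrays and 90.8, 151 and 139 in parental arrays (log2 difference 0.80, SE 0.264, limma adjusted p = 0.182).

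PFKL, the liver form of phosphofructokinase, stood at 11.4, 9.73 and 6.79 array medians in resistant arrays and 15, 20.9 and 18.4 in parental arrays (log2 difference -0.98, SE 0.276). The muscle form PFKM was at 0.74 (SE 0.428) and the platelet form PFKP at -0.19 (SE 0.331), and neither was called. HLCS, which attaches biotin to carboxylases, was at -0.85 and PIGP, which acts in the first step of GPI anchor synthesis, at -0.66. The 5 tested partners of PIGP had a median of -0.30 and 0 called. Of these 4 were below 0, and 2 lay entirely below and 0 entirely above the parental arrays (14.2% and 16.1% of all genes). The ends of the list were DPM2 at -0.76 (SE 0.371) and PIGA at 0.05 (SE 0.231). CBR1, a carbonyl reductase, overlapped between the groups, at 5.59, 7 and 4.71 in resistant arrays and 16.6, 4.82 and 5.89 in parental arrays (log2 difference -0.45, SE 0.486), and without parental 1 its difference was 0.10.

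The surface and matrix genes were 2. COL18A1, whose collagen is the source of endostatin, stood at 30.8, 16.3 and 20.6 array medians in resistant arrays and 37.4, 40.7 and 35.2 in parental arrays (log2 difference -0.79, SE 0.284). APP, the amyloid precursor protein, was faint, at 1.18, 1.40 and 2.06 in resistant arrays and 2.14, 1.38 and 1.86 in parental arrays (log2 difference -0.23, SE 0.300), and its groups overlapped.

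The transcripts DSCR4 and DSCR8 of the Down syndrome critical region, whose roles are not settled, had log2 differences among the lowest of the set. DSCR8 stood at 29.5, 24.4 and 22.7 array medians in resistant arrays and 103, 74.1 and 73.3 in parental arrays (log2 difference -1.70, SE 0.241). DSCR4 stood at 0.146, 0.136 and 0.098 in resistant arrays and 1.62, 3.38 and 1.82 in parental arrays (log2 difference -4.10, SE 0.347). Its resistant values lay in the range of background, and the size of its difference depends on how such values are treated. DSCR4 passed the level filter only through its parental arrays, so nothing is read from its call. With pseudocounts of 0.25 and 1 array median, the log2 difference of DSCR4 was -2.68 and -1.50. In the order of tested genes DSCR4 and DSCR8 neighbour each other, next to DYRK1A.

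Listed genes that share a start region with a gene on the opposite strand offered a comparison within short distances. SON starts 146 bases from GART, an enzyme of purine synthesis, which stood at 94.8, 81.9 and 79.6 array medians in resistant arrays and 69.0, 96.4 and 91.2 in parental arrays (log2 difference 0.01, SE 0.228), against -0.73 (SE 0.215) for SON. GABPA starts 68 bases from ATP5PF, a subunit of the mitochondrial ATP synthase. ATP5PF was at -0.26 (SE 0.200) with groups that did not overlap, against -0.96 (SE 0.218) for GABPA. The second tested GABPA probe set was at -0.38 (SE 0.267) with groups that overlapped, so the contrast within this pair depends on the probe set. The difference within these pairs was not tested. URB1 and URB1-AS1, whose starts lie 121 bases apart, were at -0.64 (SE 0.218) and -1.79 (SE 0.402). PCNT and C21orf58, 286 bases apart, were at -0.42 (SE 0.243) and -1.22 (SE 0.497). MCM3AP and YBEY, 731 bases apart, were at -0.67 (SE 0.227) and -0.51 (SE 0.386). BRWD1 and BRWD1-AS2, 275 bases apart, were at -1.34 (SE 0.222) and -0.82 (SE 0.418). ITSN1 and CRYZL1, 760 bases apart, were at -0.32 (SE 0.240) and -0.15 (SE 0.254). The groups of YBEY, BRWD1-AS2, ITSN1 and CRYZL1 overlapped.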

How the data were processed

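Total RNA of 3 resistant and 3 parental K562 samples had been hybridised to Affymetrix HG U133 Plus 2.0 arrays. Intensities from MAS5, on a linear scale and 1 for each probe set, were deposited by the authors (the MAS5 version is not given in the sources used here). The per-chip and per-gene normalization of the study's methods was not present in them. Each intensity was divided by its array median, set to at least 0.01 and taken to log2. Probe sets averaging under 1 array median were left out, as were 62 controls, leaving 26692 of 54675. Groups were compared with limma 3.58.1 (R 4.3.3; lmFit, eBayes, two-sided) with Benjamini-Hochberg adjustment over all tested probe sets. A call needed an adjusted p under 0.05 and a 2-fold change. Gene names, gene order and promoters came from RefSeq (GRCh38.p14), and the platform annotation named 1 gene for 41097 probe sets.

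The listed genes, role groups, partner lists and alternatives were chosen with earlier results of these data known. Listed genes with values per array were taken from the 12 lowest and the 6 highest differences and up to 4 per role group with the smallest SE. Genes whose probe sets differ in sign and head-to-head pairs were added. Some of these genes are given by their difference alone, and CBR1 lay outside this rule. Marker lists were read as summed levels, and partner lists as counts and medians. Values are given for partners closest to a listed gene, at an end of their list or called in an alternative. Tested alternatives are given in the closing section, and precision is limited by having 3 arrays in each group. The fit was tested on simulated data.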

Additional observations from a re-analysis of the deposited data

How the results depend on the processing

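The median of the listed genes stayed below 0 and chromosome 21 stayed the lowest of 22 autosomes in 13 of the 13 alternatives that can change the order of genes (the other 5 cannot), and 94.2% to 98.1% of the listed genes lay below 0. The listed genes were chosen for a fall in these same arrays and count in the chromosome 21 median, so this gives no independent support. The counts of calls varied. The median of the listed genes was -0.90 with the values as deposited, where the median of all genes shifted to -0.18, and -0.60 without probe sets of shared sequence, which left 34 genes of which 23 had groups that did not overlap. The median of the other chromosome 21 genes was -0.75 as deposited and -0.33 with no level filter. Leaving out 1 array gave -0.79 to -0.66 for the listed genes, -0.65 to -0.44 for the others, and 42 to 44 listed genes without overlap.

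Over all probe sets 319 were called higher and 303 lower. The counts were 210 and 321 as deposited (39.5% higher, against 51.3%), 97 and 77 with no level filter, 462 and 455 with a pseudocount of 0.25, 599 and 592 with a pseudocount of 1, 563 and 570 with an intensity trend and robust prior, 198 and 187 without shared sequence, and 82 and 44 by the methods' t-test after Benjamini-Hochberg (65.1% higher). Leaving out 1 array gave 103 to 633 higher, 79 to 447 lower and 40% to 67.2% higher, with the most calls without parental 1. The count of listed genes called, 6 in the main fit, was 1 with no level filter, 12 with a pseudocount of 1 and 11 with the trend. It was 2 by the methods' t-test, 2 without shared sequence and 0 to 6 leaving out 1 array (0 without parental 2). The 1 gene with no level filter was DSCR4, which was also 1 of the 2 without shared sequence. Partners called were 0, except 1 with a pseudocount of 1 and 2 with the trend, settings added for the partners after seeing the data. The causes were not tested.

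Replicate numbers were not used to pair the samples in the main fit. Same-numbered arrays had deviation correlations of -0.00671, -0.0253 and -0.00641, and differently numbered arrays of -0.0141 to 0.0253. With 3 arrays in each group these values cannot settle whether the samples were paired. With a replicate block the calls were 133 higher, 136 lower and 1 listed gene, DSCR4.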
